A study of Mus musculus with 8 samples.

Results

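Mouse limb bud cells that had received an adenovirus carrying Cre recombinase (AdCre, 3 arrays) were compared with cells that had been left without virus (untreated, 2 arrays), which uses 5 of the 8 arrays in the series. The arrays were taken by their titles, and all 25697 probes entered the comparison. The cells were primary cells of fore- and hindlimb buds at embryonic day 11.5, from the strain 129XB6-Sox4fl/fl11fl/fl, so cells of every group, also the untreated ones labelled "Wild type", carried floxed Sox4 and Sox11, in which target sites of Cre flank part of the gene. The AdCre cells are labelled "AdeCre treated mutant" and had been kept with the virus for 24 h after 6 h in culture. The other 3 arrays, used here as a further point of reference, came from cells given an adenovirus with the bacterial gene LacZ (AdLacZ) for the same 24 h. For the untreated cells the labels give the 6 h in culture and no later time. AdCre and untreated cells thus differ by the virus, the Cre protein, the loss of floxed gene segments and possibly the time in culture, and these 4 cannot be told apart here. AdCre was not given to any cells that lacked the floxed alleles.

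Sox4, Sox11 and Sox12 form the SoxC group of transcription factors, which bind a shared DNA motif and are known for their part in the survival of progenitor cells in the embryo. Adenoviral particles and their DNA are known to be sensed by infected cells, which answer with type I interferon. Interferon acts through transcription factors that include STAT2 and IRF9 and bind the interferon-stimulated response element in the promoters of antiviral genes. The early limb bud consists mostly of mesenchyme that will form cartilage and connective tissue, beside ectoderm, incoming muscle precursors, vessels, primitive red cells and macrophages.

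Signals are given on the log2 scale of background-corrected intensity, changes are differences on that scale with limma's standard error (SE), and a change of 1 is 2-fold. The detection floor lay at 5.27 on this scale, and 14358 to 14385 probes per array lay above it. Of the 11 tested markers of limb mesenchyme, 10 were above the floor on all 3 AdCre arrays and on both untreated arrays. The 14 tested muscle markers were above it on all of these arrays too. Nothing states that the arrays of a group came from separate cultures or litters, and p values here reflect only how far these arrays spread.

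Of 15944 probes tested, 2183 (13.7%) passed an adjusted p of 0.05 (limma, Benjamini-Hochberg over all tested probes) in AdCre against untreated cells. AdCre was higher for 1054 of them (6.61%, 876 named genes) and lower for 1129 (7.08%, 907 named genes). Most changes were small: their median size was 0.59, and 88 probes rose and 121 fell by more than 2-fold. The 3 AdCre and 2 untreated values did not overlap for any of the 2183 probes, but they also did not overlap for 6901 (43.3%) of all probes tested. With 1 probe per gene, the brightest, 797 of 10772 genes (7.40%) were higher and 653 (6.06%) lower, with a median change of 0.02, and the gene lists below are read beside these shares. In the same fit 834 probes (5.23%) passed in AdLacZ against untreated and 802 (5.03%) in AdCre against AdLacZ cells.

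Sox4, the floxed gene that the arrays measured, was lower in AdCre cells. Its signal was 5.34, 5.37 and 5.41 in AdCre cells, 6.59, 6.72 and 6.75 in AdLacZ cells, and 6.62 and 7.13 in untreated cells. All 3 AdCre values lay just above the floor and below every other array. The change against untreated cells was -1.50 ± 0.14 (SE, adjusted p = 0.000356, 2.83-fold lower), and it was -1.24 against untreated replicate 1 and -1.76 against replicate 2. Its size rests on the background correction, with -2.88 without correction and -1.01 with an offset of 50, and it passed in both. Whether the Sox4 probe lies inside the segment that Cre removes was not given in the sources used here. Sox11 was not analysed here. Sox12, the SoxC member that was not floxed, differed by 0.08 ± 0.12 (adjusted p = 0.713), with values of 6.25 to 6.55 in AdCre cells and 6.36 on both untreated arrays. Of 7 other Sox genes tested 3 rose in AdCre cells. They were Sox9, the regulator of cartilage formation (0.63 ± 0.13, adjusted p = 0.0117), Sox5, its partner in cartilage (0.45 ± 0.12, adjusted p = 0.0387), and Sox7, a gene of vessel-forming cells (0.45 ± 0.13, adjusted p = 0.0403). Other probes of Sox5 and Sox7 gave 0.01 and 0.13 and did not pass, and the calls of all 3 ended without untreated replicate 1 and in an ordinary test per probe. Sox5 passed in 7, Sox7 in 5 and Sox9 in 16 of 18 alternative settings. None of the 3 differed between AdCre and AdLacZ cells past the threshold, with differences of -0.01, -0.15 and -0.08.

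Genes of the interferon response made up nearly all of the largest rises. Of the 15 largest, 13 were interferon-inducible genes or GTPases of that response, 1 was the chemokine gene Ccl5, and the first was the metallothionein gene Mt1, which is described further below. Among 26 tested antiviral effectors 19 rose and 0 fell, with a median change of 1.10 over the list. Among 10 interferon-inducible GTPases, which attack the compartments of pathogens inside cells, 8 rose and 0 fell, with a median of 1.33. Of 18 sensors of foreign nucleic acid and factors of the IRF and STAT families 11 rose and 0 fell, with a median of 0.52. Without untreated replicate 1 the counts that rose were 15, 7 and 4, and without background correction they were 14, 5 and 4.

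**Figure D1:**
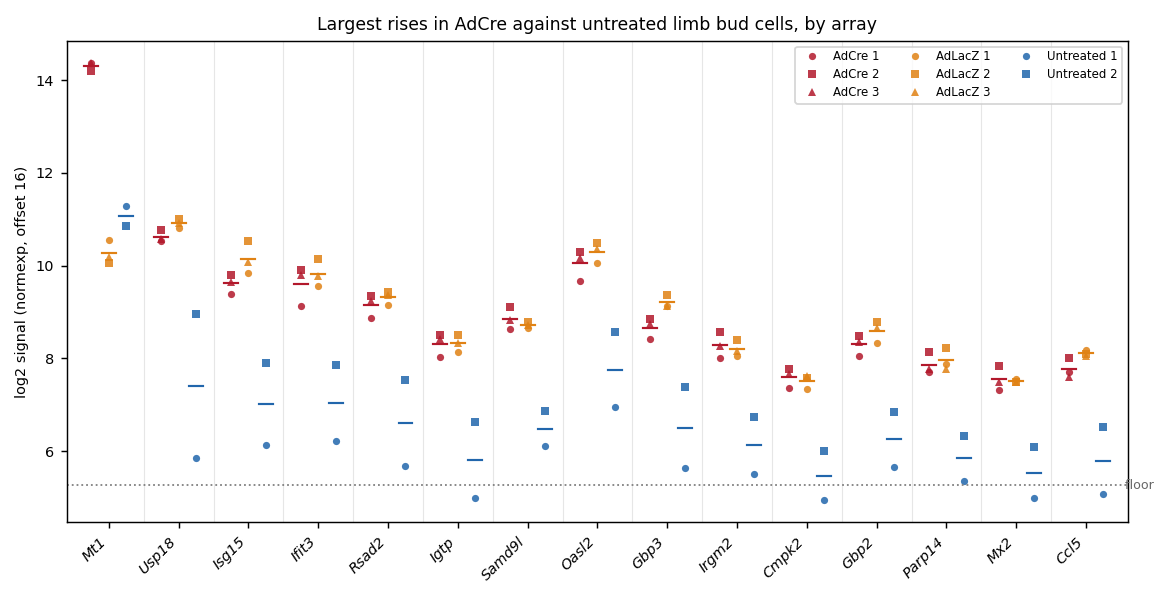
Log2 signal of the 15 genes with the largest rises in AdCre against untreated cells, with 1 point per array for AdCre (red), AdLacZ (orange) and untreated cells (blue), the group means as bars and the detection floor as a dotted line. Mt1 stands at 14.20 to 14.38 in AdCre cells and at most at 11.29 elsewhere, while in the other 14 genes the 2 untreated points lie below all AdCre and AdLacZ points and apart from each other.

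The promoters of 3 effectors that rose are shown because they hold the core of the interferon-stimulated response element. They are the first 3 effectors by p value that have a promoter entry with this core, 2 copies of GAAA with any 2 bases between them, and Samd9l, Parp14, Uba7 and Mx2, which had smaller p values than Eif2ak2, had none. The core was searched on both strands from 250 bases before to 50 after the gene's start, in RefSeq sequence of GRCm38.p6. Matches are in capitals, and sequences run 5′ to 3′ on the gene's own strand. Oas1g lies at chr5:120887564-120887863, Ifitm3 at chr7:141010695-141010994 and Eif2ak2 at chr17:78882523-78882822, all on the minus strand.
Oas1g: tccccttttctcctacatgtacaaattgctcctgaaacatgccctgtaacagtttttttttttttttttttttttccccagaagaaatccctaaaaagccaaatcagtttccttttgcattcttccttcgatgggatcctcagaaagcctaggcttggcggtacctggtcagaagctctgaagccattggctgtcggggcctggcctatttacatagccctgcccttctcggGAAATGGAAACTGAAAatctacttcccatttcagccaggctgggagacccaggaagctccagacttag
Ifitm3: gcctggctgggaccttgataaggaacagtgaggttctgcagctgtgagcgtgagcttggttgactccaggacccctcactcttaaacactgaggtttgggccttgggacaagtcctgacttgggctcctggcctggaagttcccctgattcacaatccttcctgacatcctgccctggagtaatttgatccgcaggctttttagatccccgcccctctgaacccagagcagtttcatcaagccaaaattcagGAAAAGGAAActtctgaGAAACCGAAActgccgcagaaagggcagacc
Eif2ak2: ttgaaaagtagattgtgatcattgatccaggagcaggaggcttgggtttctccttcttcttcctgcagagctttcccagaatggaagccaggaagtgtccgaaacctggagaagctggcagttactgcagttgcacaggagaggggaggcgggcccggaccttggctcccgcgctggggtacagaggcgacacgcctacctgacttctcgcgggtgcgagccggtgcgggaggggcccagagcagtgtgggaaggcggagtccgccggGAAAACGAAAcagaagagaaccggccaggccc

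The Oas1g window holds 2 matches that overlap each other and start 18 and 12 bases before the gene's start. In Ifitm3 there are 2 separate matches that begin 2 and 19 bases after the start, and in Eif2ak2 there is 1 that begins 18 bases after it. Such a match was found in 1079 of 27025 promoters of the same length (3.99%). It was found in 9 of the 19 tested effectors with an entry (47.4%), among them 7 of the 14 with an entry that rose. Of 8 tested GTPases with an entry 7 held it (87.5%), and of the 7 that rose 6 held it.

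Oas1g encodes an enzyme of the family that makes the 2'-5'-linked oligoadenylates that switch on RNase L. It read 8.21, 8.51 and 8.47 in AdCre cells, 8.54, 8.84 and 8.59 in AdLacZ cells, and 6.20 and 7.03 in untreated cells (change against untreated 1.78 ± 0.21, adjusted p = 0.000879). Ifitm3, a membrane protein that hinders viral entry, read 12.99, 13.11 and 13.31 in AdCre cells, 13.11, 13.35 and 13.05 in AdLacZ cells, and 11.93 and 12.16 in untreated cells (1.10 ± 0.14, adjusted p = 0.00122). Both genes were thus high on all virus-treated arrays. The AdCre and untreated values did not overlap, as for every probe past the threshold. Eif2ak2, the kinase PKR that halts translation when it binds double-stranded RNA, read 10.22, 10.34 and 10.34 in AdCre cells, 10.26, 10.45 and 10.37 in AdLacZ cells, and 9.14 and 9.51 in untreated cells (0.98 ± 0.13, adjusted p = 0.00147).

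Usp18, a protease that takes the ubiquitin-like modifier ISG15 off its targets and dampens interferon signalling, showed the largest interferon rise on its brightest probe. It read 10.53, 10.78 and 10.57 in AdCre cells, 10.81, 11.02 and 10.93 in AdLacZ cells, and 5.85 and 8.95 in untreated cells. The 2 untreated values were 3.11 apart, so its change of 3.23 ± 0.63 (adjusted p = 0.00787) was 4.78 against untreated replicate 1 and 1.68 against replicate 2. It did not pass without background correction, with trend and robust fitting or in an ordinary test per probe. Isg15, the modifier itself, read 9.39, 9.81 and 9.66 in AdCre cells, 9.84, 10.54 and 10.08 in AdLacZ cells, and 6.13 and 7.90 in untreated cells (2.60 ± 0.40, adjusted p = 0.00258). Ifit3, which takes part in the recognition of viral RNA, read 9.12, 9.90 and 9.81 in AdCre cells, 9.56, 10.14 and 9.78 in AdLacZ cells, and 6.21 and 7.85 in untreated cells (2.58 ± 0.40, adjusted p = 0.00262). In each of these genes every virus-treated array was above both untreated arrays on the probe given. Other Usp18 probes passed with smaller rises of 2.99 and 2.20, and other Ifit3 probes passed with smaller rises of 1.43 and 1.49.

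Samd9l, an interferon-inducible factor that restricts viruses, had the smallest error among the leading interferon genes. It read 8.63, 9.10 and 8.83 in AdCre cells, 8.65, 8.78 and 8.73 in AdLacZ cells, and 6.11 and 6.86 in untreated cells, a change of 2.37 ± 0.20 (adjusted p = 0.000176). It was 2.75 above untreated replicate 1 and 1.99 above replicate 2. Rsad2, the antiviral enzyme viperin, rose by 2.55 ± 0.40, and Cmpk2, its neighbour in the genome and a mitochondrial nucleotide kinase, by 2.13 ± 0.25. Oasl2 rose by 2.29 (1.11 on another probe), Parp14, an ADP-ribosyltransferase, by 2.02, and Mx2, a dynamin-like antiviral GTPase, by 2.01. The adjusted p values of these 5 ran up to 0.00338. Their AdCre and untreated values did not overlap, as for every probe past the threshold. Uba7, the enzyme that activates ISG15, rose by 1.02 ± 0.13 (adjusted p = 0.0013). The effectors that did not pass were Zbp1 at -0.03, Ifit2 at 0.22, Ifitm2 at 0.31, Ifitm1 at 0.33, Rtp4 at 0.45, Adar at 0.64 and Oas1a at 0.72. The 2-5A synthetase genes lie in a cluster of close copies, and their probes may not fully tell them apart.

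The GTPases rose as large families. Igtp, of the immunity-related GTPases, read 8.03, 8.50 and 8.41 in AdCre cells, 8.15, 8.52 and 8.34 in AdLacZ cells, and 5.0 and 6.63 in untreated cells (2.50 ± 0.36, adjusted p = 0.00199). Untreated replicate 1 was below the floor here, as it was for Cmpk2, Mx2, Gbp2b, Ifi47, Stat2, Dhx58, Ccl4, Ccl5 and Sox7. Gbp7 and Irf5 were above the floor on 1 of the 2 untreated arrays. The sizes of these rises rest partly on a reading below the floor. Irgm2 rose by 2.16 ± 0.29, and the guanylate-binding protein genes Gbp3, Gbp2 and Gbp2b rose by 2.16, 2.05 and 1.38. Another Gbp2 probe passed with a smaller rise of 0.60. Ifi47 (1.27), Gvin1 (1.06) and Gbp7 (1.05) completed the 8, while Irgm1 at 0.08 and Iigp1 at -0.46 did not pass.

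Factors that sense viral nucleic acid or carry the interferon signal had this lower median of 0.52. Irf7, the factor that amplifies type I interferon, read 6.53, 6.55 and 6.49 in AdCre cells, 6.13, 6.22 and 6.32 in AdLacZ cells, and 4.80 and 5.15, both below the floor, in untreated cells. It was therefore at least 2.39-fold higher in AdCre cells (adjusted p = 0.000153). Stat2 (1.29 ± 0.20) and Irf9 (1.28 ± 0.20), subunits of the complex that binds the response element, rose by nearly the same amount. The RNA sensor genes Ddx58, which encodes RIG-I, and Dhx58 rose by 0.97 ± 0.16 and 0.81 ± 0.17, and Irf1 by 0.69 ± 0.13. Smaller rises passed for Socs3 (0.62), Tlr2 (0.59), Irf5 (0.56), Stat3 (0.48) and Irf3 (0.40). Ifih1 at 0.37, Cgas at 0.27 and Mavs at -0.01 did not pass. Not only Usp18 but also Isg15, Ifit3, Rsad2, Oasl2, Igtp, Gbp3, Stat2, Irf9, Ddx58, Dhx58 and Ccl5 failed in the ordinary test per probe. Without background correction Rsad2, Cmpk2, Mx2, Igtp, Gbp3, Stat2, Dhx58 and Ccl5 did not pass either.

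Few of these interferon genes separated the 2 viruses. In AdCre against AdLacZ cells 0 of 26 effectors, 0 of 10 GTPases and 1 of 18 sensors and factors passed, which was Socs1 (0.67, adjusted p = 0.021), named after its values were seen. The list medians in that comparison were -0.06, -0.03 and -0.02. In AdLacZ against the same untreated arrays the list medians were 1.23, 1.34 and 0.37. Values below 0 for AdCre minus AdLacZ were seen in Isg15 (-0.54 ± 0.36, adjusted p = 0.423), Gbp3 (-0.54 ± 0.33, adjusted p = 0.381) and Ddx58 (-0.57 ± 0.15, adjusted p = 0.0516). Those differences did not pass, which does not show that the viruses acted alike.

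The untreated arrays themselves differed in this response. Untreated replicate 2 was above replicate 1 for all 38 members of the 3 lists that rose, by a median of 0.58, whereas over all probes tested it was above replicate 1 for 49.3%. The median difference was 0.83 for the 19 effectors and 0.90 for the 8 GTPases. Against untreated replicate 1 the median change of the effector list was 1.26 and against replicate 2 it was 0.97. For the GTPases these were 1.54 and 1.12, and for the sensors and factors 0.62 and 0.38.

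**Figure D2:**
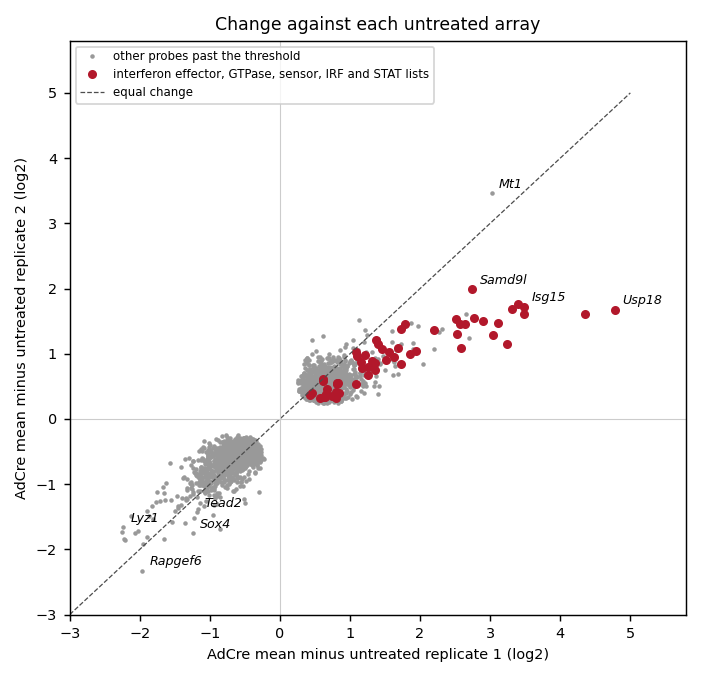
Change of each probe past the threshold, as the AdCre mean minus untreated replicate 1 (horizontal axis) and minus untreated replicate 2 (vertical axis), in log2 units. Red points are members of the 3 interferon lists, grey points all other probes, and the dashed line marks equal change: interferon genes lie below the line, with larger rises against replicate 1, while Mt1 lies above it at 3.02 and 3.47.

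Chemokine and inflammatory genes moved in both directions. Of 19 tested 6 rose and 2 fell, with a median of 0.14. Ccl5, a chemokine for T cells and monocytes, read 7.70, 8.0 and 7.61 in AdCre cells, 8.18, 8.10 and 8.06 in AdLacZ cells, and 5.08 and 6.52 in untreated cells (1.97 ± 0.31, adjusted p = 0.00308). Ccl4 rose by 1.49 ± 0.20 (0.42 and not past the threshold on another probe) and the adhesion molecule gene Icam1 by 1.04 ± 0.11. The interferon-inducible chemokine gene Cxcl10 rose by 0.84 ± 0.16 and Cxcl12 by 0.83 ± 0.14. Other Cxcl12 probes gave 0.70, which passed, and 0.32, which did not. Cxcl9 also passed, but it was above the floor on 1 of 3 AdCre arrays and on no untreated array, so it was at least 1.07-fold higher. In contrast the neutrophil attractant gene Cxcl1 fell by 0.81 ± 0.12 and the monocyte attractant gene Ccl7 fell by 0.75 ± 0.15. Neither Ccl2 at -0.25 nor Il6 at 0.14 passed. For antigen presentation on MHC class I, 4 of 15 genes rose and 1 fell, with a median of 0.28. Tap1, a subunit of the peptide transporter, rose by 0.87 ± 0.17 and H2-M3 by 0.57 ± 0.15. The proteasome genes Psmb10 and Psme1 rose by 0.52 and 0.50, and another Psme1 probe gave 0.35 and did not pass. Pdia3, a chaperone of the peptide-loading complex, fell by 0.78 ± 0.18. Without untreated replicate 1 none of these 5 passed.

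Macrophage markers that passed were all lower in AdCre cells. Of 18 tested 9 fell and 0 rose, with a median of -0.45, and 17 of the 18 changes were below 0. The summed signal of the 18 was 1296 to 1364 intensity units in AdCre cells and 1459 to 1611 in AdLacZ cells. In untreated cells it was 2679 and 2287. The lysozyme gene Lyz1 alone gave 847 and 557 of these units in untreated cells and 145 to 175 in AdCre cells. Of the defining markers Itgam and Ptprc were not above the floor on enough arrays to be tested, and Cd68 and Csf1r were not analysed here. Fewer cells of a type and less RNA per cell cannot be told apart in such bulk samples. Fcer1g, the shared signalling chain of Fc receptors, read 4.99, 4.58 and 4.94 in AdCre cells, 4.73, 4.71 and 4.92 in AdLacZ cells, and 6.74 and 6.65 in untreated cells. It was above the floor in untreated cells alone, and at least 2.68-fold lower in AdCre cells (adjusted p = 0.000147). The lysozyme gene Lyz1 read 7.45, 7.68 and 7.48 in AdCre cells, 7.74, 7.77 and 7.64 in AdLacZ cells, and 9.78 and 9.20 in untreated cells (-1.95 ± 0.16, adjusted p = 0.000154). Lyz2 read 5.77, 5.46 and 5.2 in AdCre cells, 5.79, 6.19 and 5.68 in AdLacZ cells, and 7.72 and 7.21 in untreated cells (-1.99 ± 0.21, adjusted p = 0.000585). The 2 lysozyme genes are near-identical and their probes may not tell them apart.

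The complement genes C1qc (-0.90 ± 0.17), C1qb (-0.72) and C1qa (below the floor on every AdCre array and at least 1.30-fold lower), the signalling adaptor gene Tyrobp (-0.60), the actin regulator gene Coro1a (-0.56) and the Fc receptor gene Fcgr3 (-0.56) were the other 6 that fell. Adgre1, which encodes the macrophage antigen F4/80, was at -0.47 (adjusted p = 0.12), Mrc1 at -0.15, Aif1 at -0.04 and Cd52 at 0.38, and these did not pass. Without untreated replicate 1, and also without background correction, 4 of the 18 fell. Leaving out AdCre replicate 1 or 2 left 6. In AdCre against AdLacZ cells 0 of the 18 passed in either direction, with a median of -0.07, and Fcer1g differed by 0.05 there.

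Several of the largest falls outside that list came with AdLacZ values close to those of AdCre. Adcyap1, which encodes the neuropeptide PACAP, read 6.61, 6.70 and 6.84 in AdCre cells, 6.85, 7.02 and 7.0 in AdLacZ cells, and 8.74 and 8.44 in untreated cells (-1.87 ± 0.13, adjusted p = 0.000147). Mmp3, the protease stromelysin 1, read 7.36, 7.23 and 7.34 in AdCre cells, 7.02, 7.09 and 7.04 in AdLacZ cells, and 9.21 and 8.73 in untreated cells (-1.66 ± 0.14, adjusted p = 0.00017). Dcn, the small proteoglycan decorin, read 6.6, 6.65 and 6.87 in AdCre cells, 6.71, 6.61 and 6.47 in AdLacZ cells, and 8.57 and 8.20 in untreated cells (-1.68 ± 0.14, adjusted p = 0.000176). In these 3 genes every virus-treated array lay more than 1 log2 unit below both untreated arrays. Angptl7, a secreted angiopoietin-like protein, fell by 1.75 ± 0.13 and stood near the floor in AdCre cells, and Hpgd, the enzyme that inactivates prostaglandins, fell by 1.68 ± 0.15. For these 5 genes AdCre minus AdLacZ lay between -0.25 and 0.26 and did not pass.

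**Figure D3:**
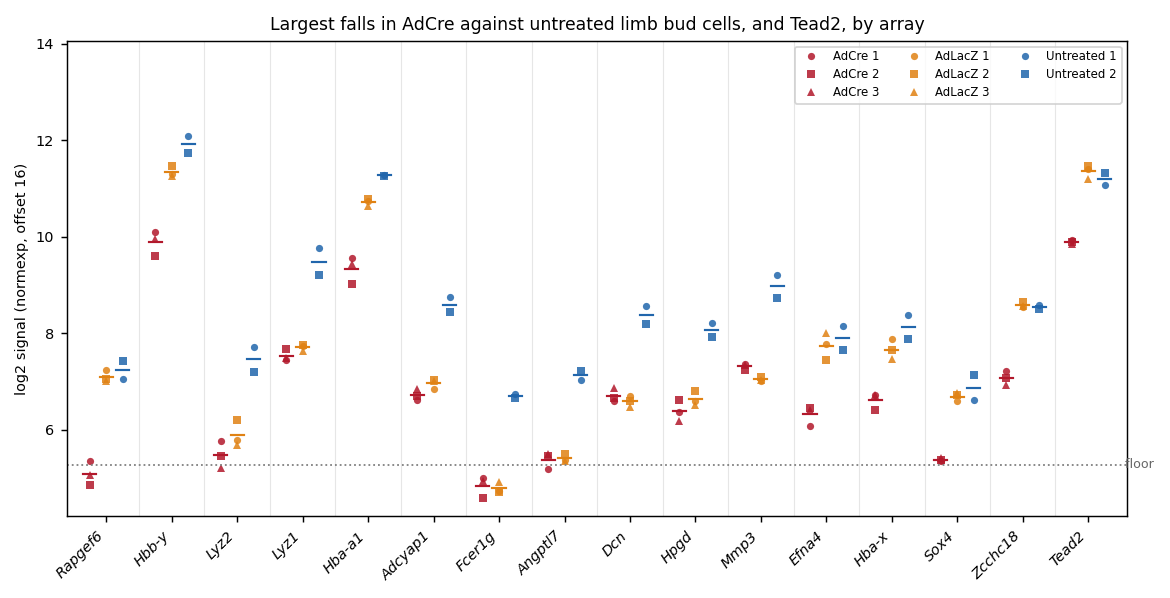
Log2 signal of the 15 genes with the largest falls in AdCre against untreated cells, and of Tead2, with 1 point per array for AdCre (red), AdLacZ (orange) and untreated cells (blue), the group means as bars and the detection floor as a dotted line. In Lyz1, Adcyap1, Fcer1g, Angptl7, Dcn, Hpgd and Mmp3 the AdLacZ points lie beside the AdCre points, whereas in Rapgef6, Efna4, Sox4, Zcchc18 and Tead2 they lie beside the untreated points.

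A second set of genes differed in AdCre cells from both other groups. Mt1, the metal-binding protein metallothionein 1, had the largest rise of any named gene. It read 14.38, 14.20 and 14.36 in AdCre cells, 10.55, 10.05 and 10.19 in AdLacZ cells, and 11.29 and 10.85 in untreated cells, which is 18800 to 21282 intensity units in AdCre cells against 2473 and 1814 in untreated cells. The change was 3.24 ± 0.17 (9.48-fold, adjusted p = 2.22e-05), and it was 3.02 and 3.47 against untreated replicates 1 and 2. AdCre and AdLacZ cells differed by 4.05 ± 0.15 (adjusted p = 6.89e-07), while AdLacZ cells were 0.80 below untreated cells (adjusted p = 0.0233). The Mt2 and Mt3 probes gave 0.02 ± 0.16 and 0.00 ± 0.19, with readings near the floor in all groups. Of the 22 tested genes of metal and oxidative stress 2 rose, Mt1 and Gpx3, an extracellular glutathione peroxidase (0.82 ± 0.17), and the list median was -0.14. Gpx3 did not pass without either one of the untreated arrays, without background correction or in an ordinary test per probe.

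Tead2, a transcription factor through which the Hippo pathway effectors YAP and TAZ reach DNA, read 9.93, 9.88 and 9.86 in AdCre cells, 11.41, 11.46 and 11.20 in AdLacZ cells, and 11.07 and 11.32 in untreated cells. Its change was -1.31 ± 0.12 against untreated cells (adjusted p = 0.000281, 2.47-fold lower) and -1.47 ± 0.11 against AdLacZ cells (adjusted p = 0.000191). It was the only 1 of 15 tested genes of the TEAD and YAP pathway past the threshold against untreated cells, and the list median was -0.06. Ankrd1, a target of that pathway, was at 0.39 ± 0.12 (adjusted p = 0.0611) on its brightest probe and rose by 0.50 on another.

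Rapgef6, an activator of Rap GTPases, showed the largest fall of a named gene. It read 5.36, 4.85 and 5.05 in AdCre cells, 7.24, 7.05 and 7.01 in AdLacZ cells, and 7.05 and 7.41 in untreated cells (-2.15 ± 0.16, adjusted p = 0.000147). Only 1 of its 3 AdCre values was above the floor. Efna4, a membrane-bound ephrin ligand, read 6.08, 6.46 and 6.41 in AdCre cells, 7.79, 7.45 and 8.0 in AdLacZ cells, and 8.14 and 7.66 in untreated cells (-1.58 ± 0.19, adjusted p = 0.000983). Zcchc18, a zinc finger gene, read 7.22, 7.08 and 6.93 in AdCre cells, 8.55, 8.65 and 8.57 in AdLacZ cells, and 8.58 and 8.50 in untreated cells (-1.46 ± 0.11, adjusted p = 0.000147). In all 3 the AdCre arrays stood apart from the other 5, and AdCre minus AdLacZ was -2.02, -1.43 and -1.51 (adjusted p up to 0.0027).

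Embryonic globin genes fell as well, with AdLacZ cells in between. Hbb-y, the epsilon-like globin of primitive red cells, read 10.10, 9.60 and 9.95 in AdCre cells, 11.30, 11.46 and 11.26 in AdLacZ cells, and 12.09 and 11.75 in untreated cells (-2.03 ± 0.16, adjusted p = 0.000147). The alpha globin gene Hba-a1 read 9.56, 9.02 and 9.43 in AdCre cells, 10.74, 10.79 and 10.63 in AdLacZ cells, and 11.29 and 11.26 in untreated cells (-1.94 ± 0.15, adjusted p = 0.000147). The zeta-like globin gene Hba-x fell by 1.52 ± 0.18 and Hbb-bh1 by 1.36 ± 0.16. The first 3 were also lower in AdCre than in AdLacZ cells, by -1.46, -1.39 and -1.05 (adjusted p up to 0.00705), and their AdLacZ minus untreated values of -0.57, -0.55 and -0.47 did not pass. Of 8 tested erythroid genes 4 fell and 1 rose, with a median of -0.89. The rise was that of Sptb, a spectrin that other cells also express, which was below the floor in untreated cells and at least 1.71-fold higher in AdCre cells. Unlike these globins, Sptb was also higher in AdCre than in AdLacZ cells (0.54 ± 0.12, adjusted p = 0.0334). Klf1 (0.00) and Slc4a1 (-0.04) did not pass. The summed signal of the 8 was 1359 to 1954 intensity units in AdCre cells and 4209 to 4769 in AdLacZ cells. In untreated cells it was 7244 and 6123. Most of it was Hbb-y and Hba-a1, with 4325 and 2470 units on untreated replicate 1 and 1066 and 724 on AdCre replicate 1. Alas2 and Gata1 were among the markers not above the floor on enough arrays to be tested. Globin copies are near-identical, and their probes may not tell them apart.

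**Figure D4:**
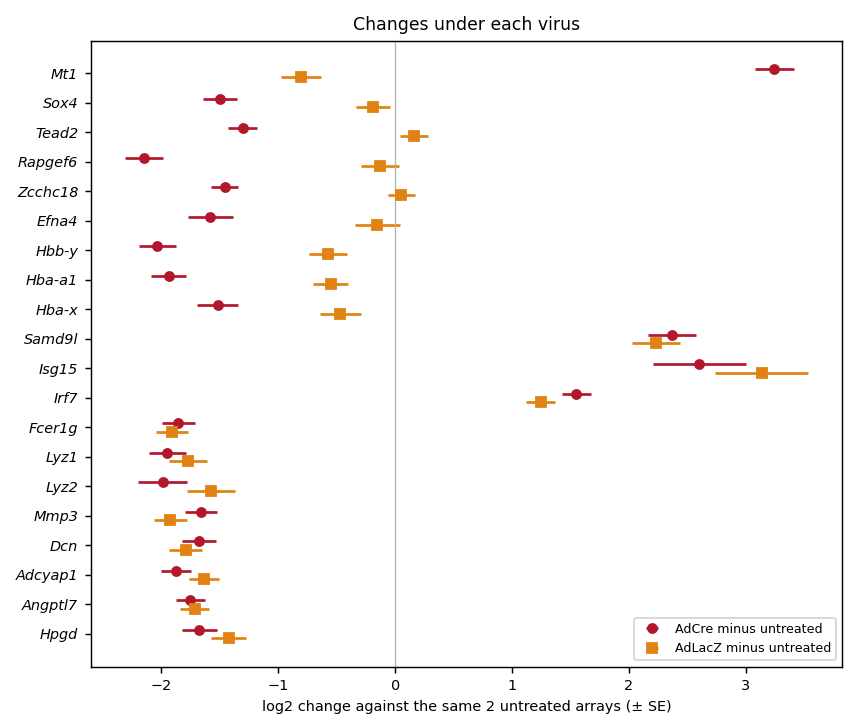
Log2 change against the same 2 untreated arrays under AdCre (red circles) and under AdLacZ (orange squares) for 20 genes, with limma's standard error as bars. The 2 viruses share their untreated arrays, so the 2 changes of a gene are not independent. Mt1, Sox4, Tead2, Rapgef6, Zcchc18, Efna4 and the globin genes stand apart, and the interferon, macrophage and matrix genes lie closer together. Some of the latter still differ under AdCre and AdLacZ, such as Isg15 (2.60 and 3.14) and Lyz2 (-1.99 and -1.58), but not past the threshold.

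Genes of matrix and of the mesenchymal lineages moved in both directions. Of 30 fibroblast matrix genes 4 rose and 4 fell, with a median of 0.18. Beside Mmp3 and Dcn, the proteoglycan gene Lum was below the floor on every AdCre array and at least 1.68-fold lower, and the collagen cross-linking enzyme gene Lox fell by 0.58. Eln, which encodes elastin, read 9.22, 9.45 and 9.15 in AdCre cells, 8.81, 9.33 and 9.17 in AdLacZ cells, and 7.92 and 8.34 in untreated cells (1.14 ± 0.18, adjusted p = 0.00277). Col5a1 rose by 0.65 ± 0.11, Loxl1 by 0.52, and the protease inhibitor gene Timp3 by 0.62 ± 0.11. Another Timp3 probe gave -0.16 and did not pass. On its first probe Timp3 was also higher in AdCre than in AdLacZ cells (0.41 ± 0.10, adjusted p = 0.0483). The main fibrillar collagen genes Col1a1 at 0.64 (adjusted p = 0.077), Col1a2 at 0.04 and Col3a1 at 0.24 did not pass. Of 9 cartilage genes 4 rose and 0 fell, with a median of 0.32. Col2a1, the main collagen of cartilage, read 8.62, 8.59 and 8.65 in AdCre cells, 8.98, 8.94 and 8.82 in AdLacZ cells, and 7.44 and 7.87 in untreated cells (0.97 ± 0.13, adjusted p = 0.00165). The cartilage matrix gene Matn4 rose by 0.80 ± 0.18, and Sox9 and Sox5 were the other 2. Matn4 was also higher in AdCre than in AdLacZ cells (0.65 ± 0.16, adjusted p = 0.0446). Without untreated replicate 1, 1 of the 9 rose.

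Muscle genes that passed were all higher in AdCre cells. All 14 changes were above 0 and 7 passed, with a median of 0.34, and their summed signal was 48556 to 52231 intensity units in AdCre cells and 41838 to 45473 in AdLacZ cells, against 35428 and 38664 in untreated cells. Ttn, the giant spring protein titin, read 9.43, 9.20 and 9.28 in AdCre cells, 9.32, 9.17 and 9.19 in AdLacZ cells, and 7.69 and 8.40 in untreated cells (1.26 ± 0.18, adjusted p = 0.00195). The intermediate filament gene Des rose by 0.78 ± 0.11 and skeletal actin, Acta1, by 0.76 ± 0.13, and these 2 were also higher in AdCre than in AdLacZ cells, by 0.54 and 0.55 (adjusted p = 0.0166 and 0.0225). The myosin light chain genes Mylpf (0.66) and Myl1 (0.54), the acetylcholine receptor gene Chrna1 (0.65) and the troponin gene Tnnt1 (0.38) were the other 4. Another Myl1 probe gave 0.39 and did not pass, nor did the regulators Myod1 at 0.18 and Myog at 0.09. Without untreated replicate 1, 4 of the 14 rose. Of 18 genes of serum response factor and the contractile apparatus 4 rose and 0 fell, with a median of 0.25: Lmod1 (0.73 ± 0.17), Srf itself (0.59 ± 0.11), Tpm2 (0.42) and Cnn1, which was below the floor in untreated cells and at least 1.16-fold higher. Cnn1 passed in 3 of 18 alternative settings, and another Srf probe gave 0.27 and did not pass. Other Tpm2 probes gave 0.51, which passed, and 0.32, which did not.

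Markers of the surface ectoderm moved in both directions. Of 15 tested 5 rose and 1 fell, with a median of 0.29, and their summed signal was 1975 to 2235 intensity units in AdCre cells, against 1532 and 1685 in untreated cells. Krt14 read 6.82, 6.57 and 6.64 in AdCre cells, 6.49, 6.33 and 6.72 in AdLacZ cells, and 5.37 and 5.65 in untreated cells (1.17 ± 0.14, adjusted p = 0.00109). The simple-epithelium keratin genes Krt8 and Krt18 rose by 1.01 ± 0.18 and 0.68 ± 0.11, Krt7 by 0.45 and the transcription factor gene Sp6 by 0.40. Krt19 at 0.36 and Krt15 at -0.06 did not pass, nor did other probes of Sp6 at 0.18 and 0.21. Krt7 passed in 5 and Sp6 in 4 of 18 alternative settings, and Krt8 did not pass without untreated replicate 1. In contrast, the tight junction gene Cldn6 fell by 0.74 ± 0.17. Krt5 and Fgf8 were not above the floor on enough arrays to be tested, and Epcam and Dsp were not analysed here. Of 13 endothelial markers 2 rose, Robo4 (0.60, but -0.03 on another probe) and Flt1 (0.45), and the receptor gene Tek fell by 0.98 ± 0.17. Of 11 neuronal and glial markers 1 fell, the axonal gene Stmn2 (-1.06 ± 0.17), which was also lower in AdCre than in AdLacZ cells (-0.81 ± 0.15, adjusted p = 0.0174), and Nefm was at -0.67 (adjusted p = 0.0597).

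Transcription factors that pattern the limb changed in both directions, 4 up and 5 down of 35 tested, with a median of -0.10. The rises were led by Meis1 and Meis2, factors of the proximal limb. Meis1 read 8.44, 8.68 and 8.36 in AdCre cells, 8.57, 8.48 and 8.69 in AdLacZ cells, and 7.09 and 7.57 in untreated cells (1.16 ± 0.16, adjusted p = 0.00147). Meis2 read 8.75, 9.05 and 9.02 in AdCre cells, 9.01, 9.10 and 8.99 in AdLacZ cells, and 7.82 and 8.08 in untreated cells (0.99 ± 0.13, adjusted p = 0.0013). Hoxd9 rose by 0.48 ± 0.11 and Sall4 by 0.45, while Hoxa9 at -0.27 and Hoxa10 at -0.24 did not pass. Hoxd13, a factor of the distal limb, read 6.49, 6.98 and 6.23 in AdCre cells, 6.96, 7.43 and 7.25 in AdLacZ cells, and 7.66 and 7.57 in untreated cells (-1.05 ± 0.20, adjusted p = 0.00822). Other distal factors, Hoxa13 at -0.29 and Hoxd12 at -0.26, did not pass. Osr2, a factor of joint development, fell by 0.99 ± 0.12 (adjusted p = 0.000848), Twist1 by 0.53 and Lhx9 by 0.39. Gli3, the effector and repressor of Hedgehog signalling, fell by 0.86 ± 0.17 (adjusted p = 0.00957). Of these genes Gli3 and Lhx9 were also lower in AdCre than in AdLacZ cells (-0.76 and -0.53, adjusted p = 0.0218 and 0.0138). Gli3 and Hoxd13 did not pass without background correction or in an ordinary test per probe. Each of them passed in 15 of 18 alternative settings, and Hoxd9 passed in 16.

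Targets of limb growth factor signals that passed were all lower. Of 29 tested targets of BMP, TGF-beta, WNT, FGF, Notch and Hedgehog signals 6 fell and 0 rose, with a median of -0.14. They were the ETS factor genes Etv1 (-1.02 ± 0.15) and Etv4 (-0.53 ± 0.10), the phosphatase genes Dusp4 (-0.64 ± 0.12) and Dusp6 (-0.51 ± 0.11), the MAP kinase pathway inhibitor gene Spred2 (-0.56, but 0.21 on another probe) and Nog, which encodes the BMP antagonist noggin (-0.87 ± 0.15). Of these 6 genes Etv1 alone was also lower in AdCre than in AdLacZ cells past the threshold (-0.79 ± 0.14, adjusted p = 0.013). The related genes Etv5 at -0.14, Spry4 at 0.14 and Spred1 at -0.08 did not pass against untreated cells. Dusp6 read 12.25, 12.13 and 12.06 in AdCre cells, 12.22, 12.20 and 12.29 in AdLacZ cells, and 12.76 and 12.54 in untreated cells. Other Dusp6 probes gave -0.75 and -1.21 against untreated cells, and both passed. Other Dusp4 probes gave -0.54, which passed, and -0.43, which did not. Without untreated replicate 1, 3 of the 29 fell. Among 18 immediate early genes, which answer within minutes to growth factors and stress, 4 fell and 1 rose, with a median of -0.12. Myc fell by 0.62 ± 0.11, Egr2 by 0.55, Fosb by 0.52 and Fos by 0.51, and Ier2, which was below the floor in untreated cells, was at least 1.23-fold higher. Of these Ier2 passed in 3 of 17 and Fosb in 7 of 18 alternative settings, and Fos and Egr2 did not pass without untreated replicate 1.

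Genes of proliferation and cell death that passed were mostly lower. The shares that fell were 12.5% for DNA replication, 9.52% for mitosis, 12.0% for p53 targets and 7.69% for apoptosis genes. Among all genes 6.06% fell. Of the replication genes 3.1% rose and of the other lists here 0%, against 7.40% of all genes. Of 32 genes of DNA replication 4 fell and 1 rose, with a median of -0.06. The helicase subunit genes Mcm7 (-0.50 ± 0.12) and Mcm3 (-0.47 ± 0.10) were lower than in untreated cells and, by -0.81 and -0.73, lower than in AdLacZ cells (adjusted p = 0.00331 for both). Rrm1 and Rrm2, the subunits of ribonucleotide reductase, fell by 0.37 and 0.77, though another Rrm2 probe gave -0.20 and did not pass. The cyclin gene Ccne1 rose by 0.45. Of these genes Rrm1 passed in 6, Ccne1 in 7, Mcm7 in 15 and Mcm3 in 16 of 18 alternative settings. Of 21 mitosis genes 2 fell, Plk1 (-0.65 ± 0.13) and Kif23 (-0.44 ± 0.11). Of 25 p53 targets 3 fell and 0 rose, led by the stress gene Gadd45a (-1.13 ± 0.16, adjusted p = 0.0017), and the list median was 0.08. Of 26 apoptosis regulators and caspases 2 fell and 0 rose, with a median of 0.01. Casp6, an effector caspase, read 7.90, 7.50 and 7.86 in AdCre cells, 8.75, 8.79 and 8.72 in AdLacZ cells, and 8.58 on both untreated arrays (-0.83 ± 0.13, adjusted p = 0.00294). It was 1.0 below AdLacZ cells as well (adjusted p = 0.00238), and Casp2, the other, fell by 0.46 ± 0.11. The BH3-only genes Bbc3 at -0.03, Pmaip1 at -0.16 and Bcl2l11 at -0.02 did not pass.

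Stress and metabolic genes changed in both directions. Of the genes of unfolded protein and amino acid stress 17.2% rose and 13.8% fell. Of the hypoxia and glycolysis genes 17.4% rose and 13.0% fell, and of the cholesterol synthesis genes 16.7% fell. Among all genes 7.40% rose and 6.06% fell. Hmox1, the inducible haem oxygenase, fell by 1.43 ± 0.30 (adjusted p = 0.0113), with values of 6.04, 6.06 and 5.54 in AdCre cells, 5.51, 6.62 and 5.82 in AdLacZ cells, and 7.63 and 6.99 in untreated cells. It did not pass without untreated replicate 1. The cystine transporter gene Slc7a11 fell by 0.58 ± 0.11. Of 29 genes that answer to unfolded proteins or a lack of amino acids 5 rose and 4 fell: Herpud1 (0.60), Dnajc3 (0.50) and Xbp1 (0.37) of the endoplasmic reticulum were among the rises, and Atf4 (-0.42) and the serine synthesis gene Phgdh (-0.49) among the falls. Of 23 hypoxia and glycolysis genes 4 rose, led by the collagen prolyl hydroxylase gene P4ha1 (0.72 ± 0.13), and 3 fell, among them the glucose transporter gene Slc2a3 (-0.51 ± 0.11). Of 18 genes of cholesterol synthesis 3 fell and 0 rose, Sqle (-0.50, and -1.03 on another probe), Hsd17b7 (-0.49) and Lss (-0.44), with a median of -0.22. None of these cholesterol or hypoxia genes passed without untreated replicate 1.

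**Figure D5:**
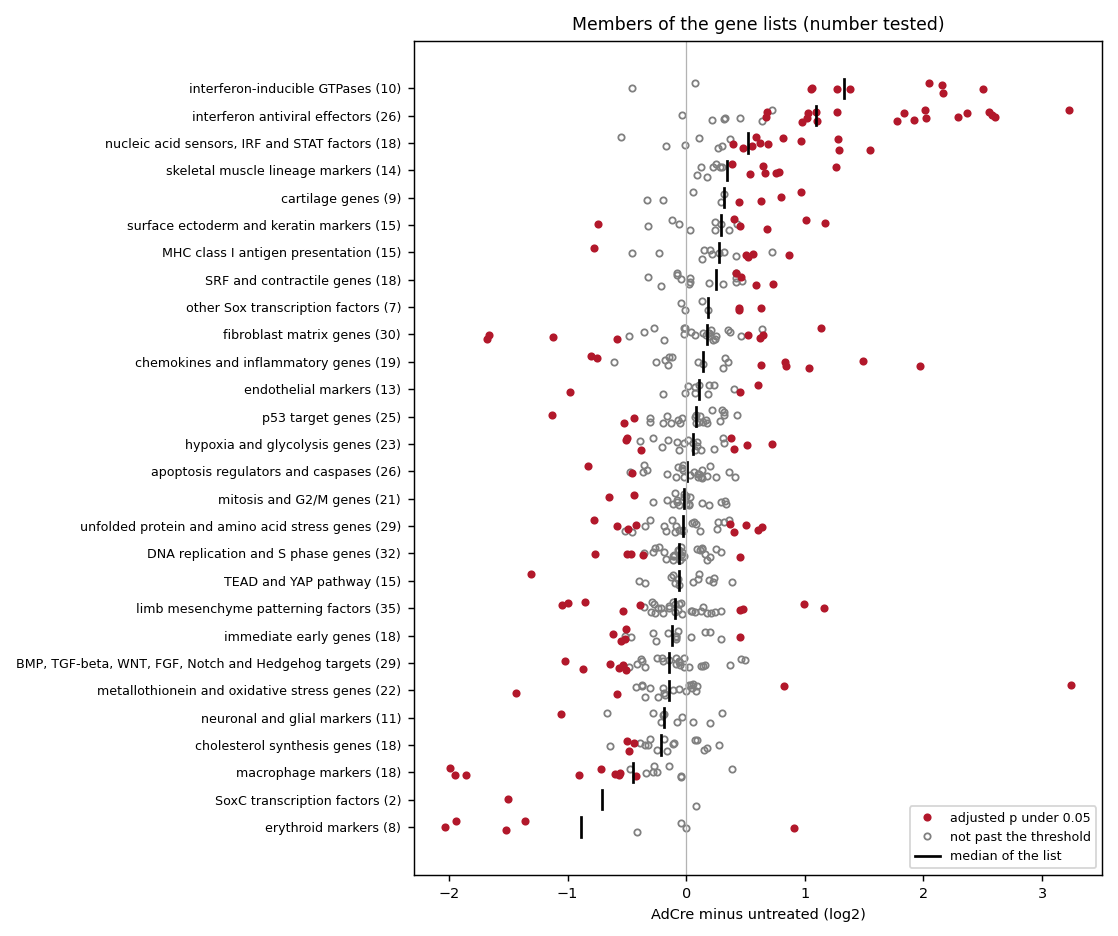
Change in AdCre against untreated cells (log2) of each tested member of the 28 gene lists, with the number tested in brackets, members past the threshold as filled red points, the others as open grey points and the list median as a black bar. The interferon lists lie to the right with medians of 1.33, 1.10 and 0.52, the macrophage and erythroid lists to the left with medians of -0.45 and -0.89, and most other lists lie around 0.

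Set against each untreated array alone, all 1054 probes called higher had an AdCre mean above both untreated replicates. All 1129 called lower were below both. This had to be so, as no called probe had overlapping AdCre and untreated values, and it is no further support. The median change of the higher probes was 0.62 against replicate 1 and 0.53 against replicate 2, and that of the lower probes was -0.65 and -0.58. Replicate 1 stood farther from the AdCre arrays, with 351 to 402 of the tested probes past 2-fold against 178 to 264 for replicate 2. The 2 untreated arrays differed from each other past 2-fold for 29 probes, and pairs of AdCre arrays for 5 to 20. Of the 132 named genes past the threshold, 70 passed whichever 1 of the 8 arrays was left out, 75 passed without untreated replicate 1 and 102 without replicate 2.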

How the data were processed

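Total RNA of 8 samples of mouse limb bud cells had been biotin-labelled and hybridised to Illumina bead arrays. Per the submitters' processing notes BeadStudio 2.1 was used. The deposited table holds linear intensity values that the authors had background-subtracted and put on 1 shared distribution, by methods not given in the sources used here. A further table names 32 columns by chip position, which match no sample, and was not used.

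Intensities were corrected with normexp in limma 3.58.1 (R 4.3.3, offset 16) and put on the log2 scale without further normalization. The offset shrinks changes of dim probes. The detection floor was 1.645 SD of each array's negative values mirrored around 0 (8.87 to 8.93 intensity units), and probes above it on at least 2 of 8 arrays were tested. A gene past the threshold but below the floor on every array of a group has its change given as a lower bound against the floor. Some genes named as not passed (Oas1a, Cgas, Ifih1, Iigp1, Il6 and Klf1) were below the floor on every array of at least 1 group, so their values are differences near background. Of 25697 probes 23978 had 1 gene symbol, 0 several and 1719 none, and 23962 were matched to RefSeq by Entrez ID.

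One model of the 3 groups was fitted to all 8 arrays (lmFit, eBayes, 2-sided, 5 residual and 5.64 prior degrees of freedom, median SE 0.134), so AdLacZ arrays lend their spread. P values were adjusted by Benjamini-Hochberg over all 15944 tested probes, and an adjusted p below 0.05 passed. The number of arrays limits the precision. Deviations of same-numbered arrays did not go together (r = -0.142 for replicates 1, r = 0.017 for replicates 2 of AdCre and untreated), so the numbers were not taken to pair arrays.

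The comparison and the 28 gene lists (683 members, 607 with a probe, 513 tested, brightest probe) were chosen with earlier results of these data known. Named are the SoxC genes, Tead2, other Sox genes past the threshold, the 15 largest rises and falls whose groups do not overlap, up to 6 members of each list by p, and the 10 genes with the largest change against both untreated arrays. Further list members are named with their values to complete a list's count or to show members that did not pass, and these were chosen after their values were seen. The fit was tested on simulated data. Figures were drawn with matplotlib 3.10.9. Alternatives covered background correction, normalization, filter, groups fitted, the replicate block, prior, array weights, an ordinary test and leaving out each array.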

Additional observations from a re-analysis of the deposited data

How the results depend on the processing

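The direction held for the 2183 probes past the threshold under all 18 alternatives that tested them, except that 1 of them turned sign without background correction. In most alternatives it could not turn. Those that change only the filter, the prior or the test keep the same difference between the group means. Leaving out an array cannot reverse a probe whose AdCre and untreated values do not overlap. The kept direction is therefore no further support. The 1554 calls from the AdCre and untreated arrays alone lie within 1.5 times of the 2183, but the count of higher probes among them, 699, does not. Without background correction 1327 probes passed (652 higher, 675 lower), in an ordinary test per probe 1238 (588 higher, 650 lower), and with all probes tested 671 were higher. An offset of 50 gave 2826 calls and trend and robust fitting 2901. With the replicate number as a block 1473 probes passed, 675 higher and 798 lower, and 1413 of them were among the 2183. Leaving out 1 array gave 712 to 2008 calls, 317 to 953 of them higher and 395 to 1055 lower. The low end came without untreated replicate 1, where the lone untreated array is assumed to vary like the other groups, and 678 of the 712 were among the 2183. Without untreated replicate 2 the count was 1626, and without AdCre replicate 2 it was 659 higher probes. Sox4 passed under all 18 alternatives, with changes of -2.88 to -1.01. Of the 132 named genes past the threshold, 69 passed under all alternatives other than leaving out an array, and calls were lost for 38 without background correction, 48 in the ordinary test, 22 with the block and 57 without untreated replicate 1, with adjusted p values up to 0.289. The cause was not tested. Genes near the floor have sizes that rest on the offset.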
